A study of Mus musculus with 6 samples.

Results

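In sorted tumor cells labelled as fibroblasts, 10 genes that report on canonical Wnt signaling and on the colonic crypt stem cell were followed. The 10 genes were Axin2, Nkd1, Notum, Tcf7, Lef1, Lgr5, Ascl2, Sox9, Myc and Ccnd1. They were chosen by name, with earlier results of these data known, and all 10 of them were found among the 49548 genes of the deposited table. The libraries came from colonic adenomas of C57/BL6 mice with the genotype Col6a1-cre, Rosa26-mTmG that had been carried through AOM/DSS, in which the carcinogen azoxymethane is followed by cycles of the colitis-inducing agent dextran sodium sulfate. In the mTmG reporter, Cre activity replaces membrane Tomato with GFP, so GFP+ cells are those in which Col6a1Cre had been active. Cancer-associated fibroblasts (CAFs) were sorted as GFP+ or Tomato+ cells after gating out CD45, EpCAM, CD31 and Ter119, and the sequencing covered 3 libraries per group, named Col6a1+ CAFs for the GFP+ and Col6a1- CAFs for the Tomato+ cells. Every library came from tumors pooled over several mice. Both groups carried the same alleles and the same treatment. By the study's account neither gate holds a single cell type: pericytes fall in the GFP+ gate beside fibroblasts with high PDGFRa, and the Tomato+ gate mixes trophocytes with fibroblasts of low PDGFRa.

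Canonical Wnt signaling stabilizes beta-catenin, which enters the nucleus and joins DNA-binding factors of the TCF/LEF family at target genes. Several of these targets, among them Axin2, Nkd1 and Notum, encode inhibitors that act back on the pathway, and they are widely read as a gauge of its activity. In the colon, Wnt signals are strongest at the crypt base, where stem cells express Lgr5 and Ascl2, and tumors formed under AOM/DSS often carry stabilizing mutations of the gene of beta-catenin. Fibroblasts around the crypt are a source of Wnt ligands and also answer them.

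The promoters are shown because TCF/LEF factors bind DNA, and several genes of the pathway differed in the same direction. RefSeq promoters (GRCm38.p6, 250 bases before to 50 bases after a start) were at hand for 5 of the 10 genes, with 9 starts among Axin2, Nkd1, Ascl2, Tcf7 and Lef1. A core of the TCF/LEF binding motif, CTTTGA, was searched on both strands. It was found in 1 of the 9 promoters, at an internal start of Lef1, and in 16.0% of 32851 mouse promoters. The 9 are not all separate, since the Lef1 windows chr3:131110047-131110346 and chr3:131110073-131110372 overlap. Sites that lie outside these windows, or that lack this core, were not searched. The longer CTTTGAT, which contains the shorter core, was in none of the 9 and in 3.73% of all promoters. The window at the annotated start of Axin2 (chr11:108920099-108920398, plus strand) held no match, nor did that of Nkd1 (chr8:88527383-88527682, plus strand), which surrounds a start inside the gene as the deposited table draws it and not the 5′ end given there. The internal Lef1 start (chr3:131156044-131156343, plus strand) held 2 matches on the opposite strand, whose first bases lie 180 and 120 bases upstream of the start. For comparison, the promoter of Sp5, a Wnt target outside the 10 genes (chr2:70474673-70474972, plus strand), held 2 matches on its own strand, 204 and 104 bases upstream. Matches are in capitals, each sequence is written 5′ to 3′, and a match is a description of the letters and not of a bound site.
Axin2: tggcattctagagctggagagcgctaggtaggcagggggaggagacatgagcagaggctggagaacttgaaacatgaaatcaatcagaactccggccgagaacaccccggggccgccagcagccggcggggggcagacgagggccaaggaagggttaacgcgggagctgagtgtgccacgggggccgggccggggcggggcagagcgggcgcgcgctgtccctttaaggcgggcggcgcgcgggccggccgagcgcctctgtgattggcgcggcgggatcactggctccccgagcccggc
Nkd1, internal start: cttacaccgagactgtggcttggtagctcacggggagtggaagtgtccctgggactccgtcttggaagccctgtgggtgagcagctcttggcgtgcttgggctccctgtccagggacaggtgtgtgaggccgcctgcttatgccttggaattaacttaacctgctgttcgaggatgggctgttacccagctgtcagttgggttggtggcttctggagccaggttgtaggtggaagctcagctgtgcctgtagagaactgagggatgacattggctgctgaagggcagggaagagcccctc
Lef1, internal start: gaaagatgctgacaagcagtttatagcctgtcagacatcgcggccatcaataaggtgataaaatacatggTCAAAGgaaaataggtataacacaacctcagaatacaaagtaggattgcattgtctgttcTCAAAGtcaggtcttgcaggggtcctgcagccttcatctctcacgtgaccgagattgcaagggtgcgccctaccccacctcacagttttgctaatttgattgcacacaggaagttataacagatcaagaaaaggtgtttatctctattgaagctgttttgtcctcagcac
Sp5: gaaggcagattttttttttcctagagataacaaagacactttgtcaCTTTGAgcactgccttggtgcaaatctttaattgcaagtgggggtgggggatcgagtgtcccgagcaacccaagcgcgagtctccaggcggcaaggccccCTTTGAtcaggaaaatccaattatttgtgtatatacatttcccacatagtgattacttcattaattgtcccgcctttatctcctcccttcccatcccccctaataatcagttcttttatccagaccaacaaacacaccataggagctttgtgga

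Before the members, the libraries were checked against their labels. Col6a1, whose promoter drives the Cre, had 861, 1287 and 1941 normalized counts in the Col6a1+ libraries and 182, 321 and 102 in the Col6a1- libraries. Normalized counts are reads per gene divided by the authors' size factor of the library, and they summed to between 3039152 and 3425249 per library. Col6a1+ replicate 1 had at least 1 count in 14530 genes, and the other 5 libraries in 18770 to 20511. The markers of other cell types differed between the groups. Summed over 15 epithelial markers, the counts were 6191 to 7157 in the Col6a1+ libraries and 21559, 37276 and 26963 in the Col6a1- libraries, although cells with EpCAM had been gated out. Epcam itself had 1074, 884 and 615 counts in Col6a1+ CAFs and 3107, 4129 and 3730 in Col6a1- CAFs, and none of the 15 markers was at 0 in every library of a group. The ratio of epithelial to pan-fibroblast marker counts was 0.145 to 0.155 in Col6a1+ CAFs and 1.36, 2.47 and 3.09 in Col6a1- CAFs. The Col6a1- libraries, labelled as fibroblasts, therefore held more counts of epithelial than of fibroblast markers. In bulk libraries, fewer cells of a type and less RNA per cell cannot be told apart.

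The feedback inhibitors Axin2, Nkd1 and Notum, the transcription factor Tcf7 and the stem cell genes Lgr5 and Ascl2 were lower in Col6a1+ than in Col6a1- CAFs, and the levels of Myc and Ccnd1 overlapped between the groups. With limma, these 6 of the 10 genes were lower at an adjusted p under 0.05 and 0 were higher (8 lower and 0 higher at an unadjusted p under 0.05). Of the 26402 genes tested, 4.62% passed the adjusted threshold in either direction, 1.96% as lower and 2.66% as higher. The 8 members also had an absolute log2 fold change over 1. At that unadjusted threshold and fold change, 2273 of all genes tested were lower and 1607 higher. In 8 of the 10, every Col6a1+ library lay below every Col6a1- library, which was true of 11.6% of the genes tested. This separation was not particular to the members. Of the 15 epithelial markers, 10 were lower at the adjusted threshold and 12 had every Col6a1+ library below every Col6a1- library. As a log2 fold change, Col6a1+ minus Col6a1- CAFs, the members had a median of -3.13, beside -2.12 for the epithelial markers and -0.27 over all genes. The calls rested on all 6 libraries. When 1 library was left out, 7 or 8 of the members kept an unadjusted p under 0.05 and a negative fold change. In those fits 3428 to 5073 of the 26402 genes had an unadjusted p under 0.05, in either direction. After adjustment 1 member was called without Col6a1- replicate 2 (Nkd1) and 0 were called without any other library. With the replicate number as a block, limma called 0 genes of the 26402 (smallest adjusted p = 0.0612), although 8 of the 10 members and 4418 genes had an unadjusted p under 0.05. When the block was fitted to the genes averaging 10 counts or more, 5 of the 10 members were lower (Axin2, Nkd1, Notum, Tcf7 and Lgr5), where 6.44% of the 13515 genes tested passed as lower.

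**Figure D1:**
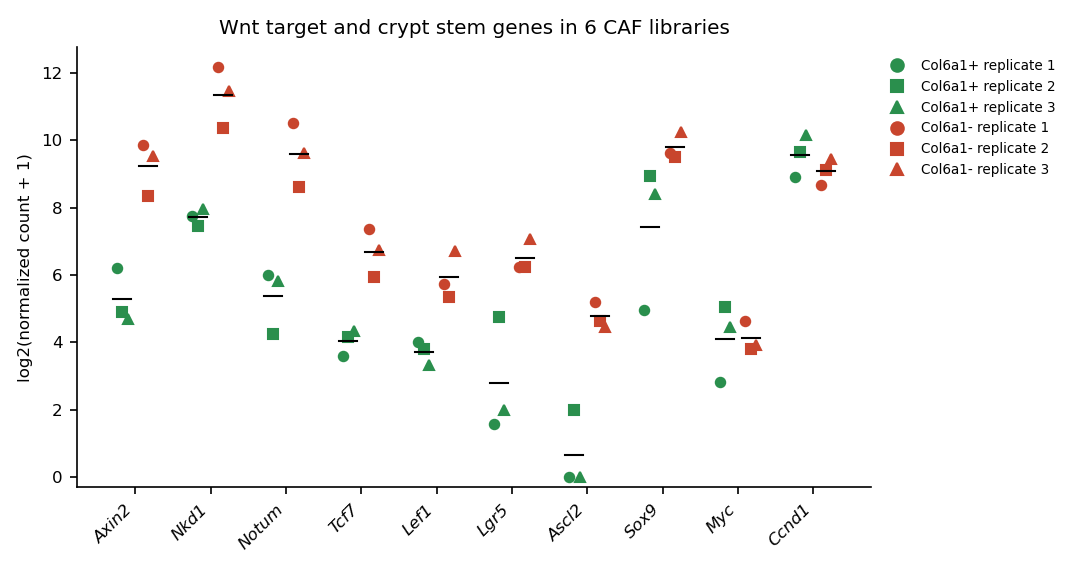
Level of each gene in each library, as log2(normalized count + 1), with Col6a1+ CAFs in green, Col6a1- CAFs in red, the replicate number given by the symbol, and black bars for the mean of 3 libraries. The groups are apart for the 8 genes from Axin2 to Sox9 and overlap for Myc and Ccnd1.

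The feedback inhibitors had the clearest difference. Axin2 (ENSMUSG00000000142, chr11:108920349-108950783 on mm10, as are the coordinates of the other genes) encodes a scaffold of the complex that marks beta-catenin for degradation. It had 73, 29 and 25 normalized counts in Col6a1+ CAFs and 925, 324 and 733 in Col6a1- CAFs. The lowest Col6a1- library, replicate 2, thus stood well above the highest Col6a1+ library. The means were 42.3 ± 26.6 and 661 ± 307 (SD, n = 3 each), 15.6-fold apart, and the log2 fold change was -3.97 (SE 0.51, 95% interval -5.10 to -2.83, limma adjusted p = 0.00232, 0.0612 with the replicate block). Axin1, its constitutive relative, had 158, 97 and 120 counts in Col6a1+ CAFs and 59, 99 and 114 in Col6a1- CAFs, with overlapping groups and a log2 fold change of 0.48 (adjusted p = 0.603).

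Nkd1 (ENSMUSG00000031661, chr8:88521354-88594884) encodes an antagonist that binds Dishevelled, the relay beneath the Wnt receptor. Its counts were 214, 173 and 248 in Col6a1+ CAFs and 4567, 1314 and 2842 in Col6a1- CAFs. The Col6a1+ libraries were close to each other (212 ± 37.6), whereas the Col6a1- libraries spread widely (2908 ± 1627), with replicate 1 highest and replicate 2 lowest. The log2 fold change was -3.61 (SE 0.42, 95% interval -4.54 to -2.69, adjusted p = 0.00163, 0.0612 with the block), and Nkd1 was the member that stayed called without Col6a1- replicate 2 (adjusted p = 0.0462). Its relative Nkd2 had the opposite sign: 184, 76 and 130 counts in Col6a1+ CAFs against 32, 20 and 1 in Col6a1- CAFs, which did not pass (log2 fold change 3.46, adjusted p = 0.0689). Gm45496, which overlaps Nkd1 on the same strand, had at most 72 counts, in Col6a1- replicate 3, and reads of the 2 genes could be shared.

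Notum (ENSMUSG00000042988, chr11:120653788-120661175) encodes a secreted enzyme that removes the lipid from Wnt ligands and so inactivates them outside the cell. It had 63, 18 and 56 counts in Col6a1+ CAFs and 1453, 393 and 793 in Col6a1- CAFs. As for Axin2 and Nkd1, replicate 1 was the highest and replicate 2 the lowest of the Col6a1- libraries. The means of 45.7 ± 24.2 and 879.7 ± 535 were 19.3-fold apart (log2 fold change -4.23, SE 0.57, 95% interval -5.48 to -2.97, adjusted p = 0.00279, 0.0612 with the block). The antisense gene Notumos had 0, 3 and 5 counts in Col6a1+ CAFs and 71, 10 and 40 in Col6a1- CAFs, so the counts at the locus lay mainly on the row of Notum itself. Whether reads were counted by strand is not given in the sources used here.

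Of the transcription factors that carry the beta-catenin signal, Tcf7 passed the test and Lef1 did not. Tcf7 (ENSMUSG00000000782, chr11:52252371-52283014) had 11, 17 and 19 counts in Col6a1+ CAFs and 163, 60 and 106 in Col6a1- CAFs, without overlap. Its log2 fold change was -2.65 (SE 0.55, 95% interval -3.87 to -1.43, adjusted p = 0.0230, 0.115 with the block). Lef1 (ENSMUSG00000027985, chr3:131110471-131224356) had 15, 13 and 9 counts in Col6a1+ CAFs and 52, 40 and 103 in Col6a1- CAFs. The groups did not overlap here either, but the log2 fold change of -2.22 (SE 0.61, 95% interval -3.58 to -0.86) had an adjusted p of 0.0734, which came to 0.0452 when genes with a mean under 10 counts were left out. Tcf7l1 and Tcf7l2, the other genes of the family, had log2 fold changes of 0.83 and -0.80 and did not pass (adjusted p = 0.244 and 0.383). Tcf7 and Lef1 are also genes of T cells. Over 12 T cell markers the summed counts were 83 to 169 in Col6a1+ CAFs and 138 to 216 in Col6a1- CAFs, limma called none of the 11 markers tested (2 at an unadjusted p under 0.05). Those 2 went in opposite directions: Trac, of the T cell receptor, had 30, 31 and 39 counts in Col6a1+ CAFs and 4, 3 and 0 in Col6a1- CAFs, and the transcription factor gene Bcl11b had 0, 22 and 20 against 56, 80 and 177. Cd3e, Cd3g, Cd8a and Cd2 were at 0 in every Col6a1+ library, and in Col6a1- CAFs Cd3g was at 0 as well and the other 3 were at 0 in all but 1 library.

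The stem cell genes had low counts in Col6a1+ CAFs. Lgr5 (ENSMUSG00000020140, chr10:115450311-115587780), which encodes a receptor for R-spondins and marks the crypt base columnar stem cell, had 2, 26 and 3 counts in Col6a1+ CAFs and 75, 74 and 133 in Col6a1- CAFs. Col6a1+ replicate 2 was the high library of its group, and it still lay below every Col6a1- library. The log2 fold change was -3.73 (SE 0.86, 95% interval -5.64 to -1.83, adjusted p = 0.0353, 0.144 with the block), and with a pseudocount of 0.1 in place of 1 the adjusted p was 0.0582. A930009A15Rik, antisense to Lgr5, had 0 counts in each Col6a1+ library and 46, 10 and 14 in Col6a1- CAFs, and its reads cannot be told apart from those of Lgr5 without strand. Lgr4, the broadly expressed relative, was also lower in Col6a1+ CAFs (log2 fold change -1.67, SE 0.39, adjusted p = 0.0365, 0.0916 with the block). Lgr6 had 9, 4 and 7 counts against 11, 23 and 10 (adjusted p = 0.612).

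Ascl2 (ENSMUSG00000009248, chr7:142966829-142969264) encodes the basic helix-loop-helix factor of crypt stem cells. It had 0, 3 and 0 counts in Col6a1+ CAFs and 36, 24 and 21 in Col6a1- CAFs. A count of 0 allows up to 3 reads, so Ascl2 was at the limit of detection in Col6a1+ CAFs. The summed counts of 3 and 81 gave a ratio of 27.0, with a 95% interval of 8.92 to 134 that covers counting error alone. The adjusted p was 0.0437 (0.119 with the block, and 0.0889 with a pseudocount of 0.1).

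Sox9 (ENSMUSG00000000567, chr11:112782224-112787760), a transcription factor of the crypt base and of progenitor cells, had a difference whose size depended on 1 library. It had 30, 484 and 337 counts in Col6a1+ CAFs and 782, 727 and 1206 in Col6a1- CAFs. Col6a1+ replicate 1, the library with the fewest detected genes, was far below the other 2 of its group. The log2 fold change was -2.36 (SE 0.83, 95% interval -4.19 to -0.53) and did not pass (adjusted p = 0.162). Without that library the fold change was smaller, at -1.12, and the limma adjusted p was much the same (0.152). With limma-voom the adjusted p was 0.0499.

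Myc and Ccnd1, often listed as Wnt targets that drive growth and entry into the cell cycle, did not share the pattern. Myc (ENSMUSG00000022346, chr15:61985391-61990374) had 6, 32 and 21 counts in Col6a1+ CAFs and 24, 13 and 14 in Col6a1- CAFs, and the groups overlapped. Its log2 fold change was -0.02 with a wide 95% interval of -1.81 to 1.78, and differences within that interval were not detectable at these counts. Ccnd1 (ENSMUSG00000070348, chr7:144929931-144939925), the gene of cyclin D1, had 474, 800 and 1134 counts in Col6a1+ CAFs and 407, 557 and 699 in Col6a1- CAFs. It was higher in Col6a1+ CAFs within each of the 3 replicate numbers, but the groups overlapped and the log2 fold change of 0.48 (SE 0.37, 95% interval -0.33 to 1.29) did not pass (adjusted p = 0.596). Oraov1, on the other strand at the same place, had 41 to 71 counts in Col6a1+ and 43 to 89 in Col6a1- CAFs. Of the relatives, Ccnd2 and Ccnd3 had log2 fold changes of 0.28 and 0.67, and Mycl and Mycn of -3.22 and -1.42, none of them past the test (adjusted p = 0.652, 0.585, 0.129 and 0.603). For 12 proliferation markers the summed counts were 943 to 1174 in Col6a1+ CAFs and 1075 to 1659 in Col6a1- CAFs, and limma called none of the 12 (2 at an unadjusted p under 0.05).

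Since the epithelial markers moved with the members, the libraries were also scaled to the same mean log2 level of the 15 epithelial markers, a choice made after seeing the data. Over all genes tested this moved the median from -0.27 to 0.94 on the log2 scale, and over the members to -1.19. On this scale Axin2 and Notum were called lower in Col6a1+ CAFs, 2 of the 10 members beside 0.504% of the genes tested. Their log2 fold changes were -2.02 (95% interval -3.52 to -0.51, adjusted p = 0.0498) and -2.27 (95% interval -3.89 to -0.66, adjusted p = 0.0401). Whether the 15 markers follow the epithelial cells that express Wnt targets was not tested, so this scaling cannot show a difference free of epithelial content. Nkd1 had -1.64 (adjusted p = 0.0739), Ascl2 -2.99 (adjusted p = 0.0982) and Lgr5 -1.95 (adjusted p = 0.163). Tcf7, Lef1 and Sox9 came to -0.74, -0.33 and -0.40, with intervals that include 0. Ccnd1 was higher in Col6a1+ CAFs on this scale (2.45, 95% interval 1.47 to 3.43, adjusted p = 0.00238), where 24.8% of the genes tested passed as higher, and Myc had 1.80 (adjusted p = 0.206).

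**Figure D2:**
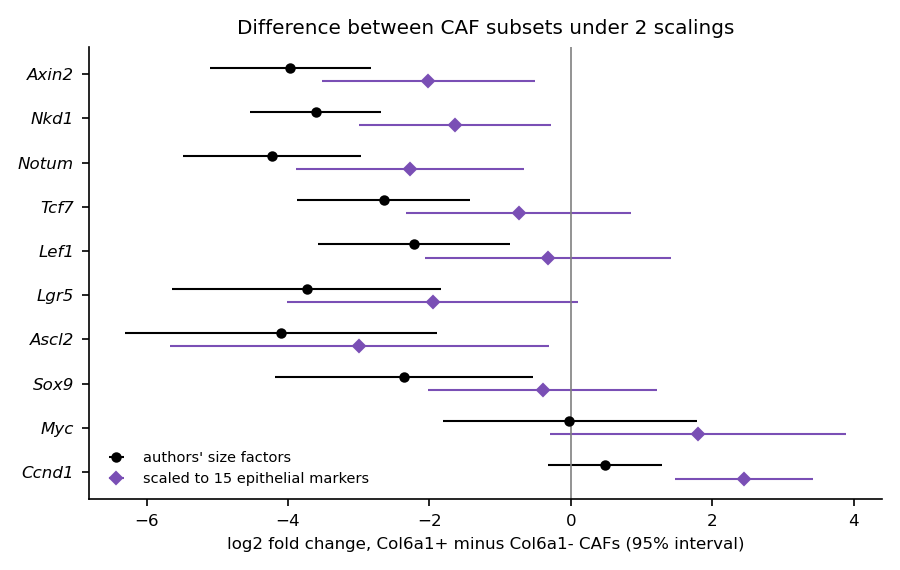
Log2 fold change of each gene, Col6a1+ minus Col6a1- CAFs, with its 95% interval, on the authors' scaling (black circles) and after scaling to 15 epithelial markers (purple diamonds). Every gene shifts to the right under the epithelial scaling, and the intervals of Axin2, Nkd1, Notum and Ascl2 stay below 0.

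Among the 3 Col6a1- libraries, the order of the feedback genes differed from that of the epithelial sum. Cdh1 alone gave 10493, 15452 and 11963 counts of that sum. Single markers had other orders, such as Krt18 with 1754, 1921 and 2234 counts. Replicate 1 had the highest counts of Axin2, Nkd1, Notum and Tcf7 and the lowest epithelial sum, whereas replicate 2 had the lowest counts of these genes and the highest epithelial sum. Per 1000 counts of the epithelial markers, Axin2 had 11.8, 4.17 and 3.49 in Col6a1+ CAFs and 42.9, 8.69 and 27.2 in Col6a1- CAFs. Nkd1 had 34.6, 24.9 and 34.7 against 212, 35.3 and 105, and Notum 10.2, 2.59 and 7.82 against 67.4, 10.5 and 29.4. On this ratio Col6a1- replicate 2 lay near or within the range of the Col6a1+ libraries, and replicates 1 and 3 lay above it. Sox9 had 4.85, 69.6 and 47.1 against 36.3, 19.5 and 44.7, so that the groups overlapped. Ccnd1 had 76.6, 115 and 158 against 18.9, 14.9 and 25.9, with the Col6a1+ libraries higher. The share of the members' counts that came from epithelial cells was not tested.

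**Figure D3:**
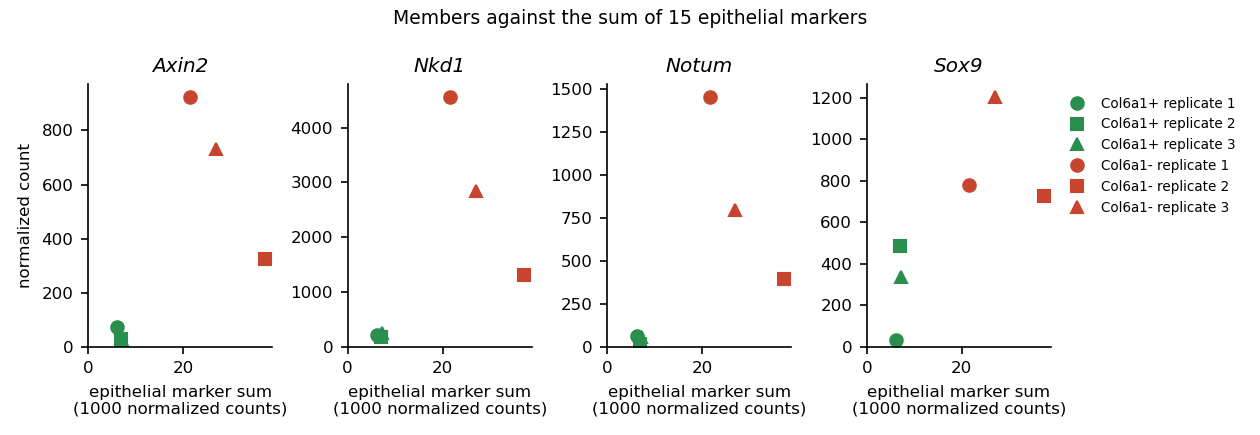
Normalized count of Axin2, Nkd1, Notum and Sox9 (vertical axes) against the summed normalized counts of 15 epithelial markers divided by 1000 (horizontal axes), 1 point per library, Col6a1+ CAFs in green and Col6a1- CAFs in red. Among the Col6a1- libraries, replicate 2 is farthest to the right and lowest for Axin2, Nkd1, Notum and Sox9.

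Other genes of the pathway were read from lists of names, also chosen with earlier results of these data known. Of 16 further Wnt targets, 6 were lower in Col6a1+ CAFs, 1 was higher and 9 did not pass (median log2 fold change -2.79), where 1.96% and 2.66% of all genes tested passed as lower and as higher. Rnf43 and Znrf3, which encode the membrane E3 ligases that remove Frizzled receptors and are countered by R-spondin and its LGR receptors, were among the lower genes. Rnf43 had 84, 24 and 41 counts in Col6a1+ CAFs and 1188, 401 and 742 in Col6a1- CAFs (log2 fold change -3.99, adjusted p = 0.00232, 0.0612 with the block), the same order of the Col6a1- libraries as Axin2. Znrf3 had 0, 63 and 15 against 285, 197 and 696 (-5.08, adjusted p = 0.0407, 0.162 with the block). Without Col6a1+ replicate 1, where Znrf3 was at 0, its log2 fold change was -3.41 (limma adjusted p = 0.117). With a pseudocount of 0.1 its adjusted p was 0.141. The others were Sp5, a transcription factor (-3.98, adjusted p = 0.0278), Apcdd1, a membrane inhibitor of Wnt (-2.60, adjusted p = 0.0110), the protease gene Mmp7 (-3.04, adjusted p = 0.00302) and the intestinal homeobox gene Cdx1 (-2.42, adjusted p = 0.00582), with 0.105, 0.0612, 0.0737 and 0.0612 under the block. Cd44, a hyaluronan receptor that fibroblasts also express, was the higher one, with 592, 645 and 710 counts against 165, 187 and 234 (1.74, SE 0.29, adjusted p = 0.00771, 0.0612 with the block). After the epithelial scaling none of the 16 passed as lower and 3 passed as higher, beside the 24.8% of all genes tested that were higher on that scale. Rnf43 (-2.03, interval -3.56 to -0.5, adjusted p = 0.0514) fell just short of the threshold there. Axin2, with a similar value, just passed it (-2.02, adjusted p = 0.0498). Znrf3 also stayed below 0 without passing (-3.57, interval -6.36 to -0.78, adjusted p = 0.0593). The intervals of Sp5, Apcdd1, Mmp7 and Cdx1 included 0 on that scale. When 1 library was left out 0 to 2 of the 16 were called.

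Of 14 further crypt stem genes, Olfm4 was at 0 in all 6 libraries. Among the 13 tested, 3 were lower in Col6a1+ CAFs and 0 higher, where 1.96% and 2.66% of all genes tested passed as lower and as higher. The median log2 fold change was -1.67, beside -0.27 over all genes tested. After the epithelial scaling 0 passed as lower and 3 as higher, beside the 24.8% of all genes tested that were higher on that scale. Smoc2 (-1.62, interval -2.99 to -0.25, adjusted p = 0.0791) and Aqp4 (-2.83, interval -5.6 to -0.05, adjusted p = 0.133) stayed below 0 there without passing. The median of the list became 0.28, still below the 0.94 over all genes tested. Smoc2, a secreted matrix protein of the Lgr5 stem cell program, had 83, 60 and 49 counts in Col6a1+ CAFs and 1281, 409 and 840 in Col6a1- CAFs (-3.58, SE 0.44, adjusted p = 0.00190, 0.0612 with the block). Its Col6a1- libraries too were highest in replicate 1 and lowest in replicate 2. Hopx (-2.28, adjusted p = 0.0369, 0.138 with the block) and Lgr4 were the other 2. When 1 library was left out, 0 or 1 of the list was called. Aqp4, with the largest fold change of the list, had 0, 13 and 1 counts against 35, 139 and 33 and did not pass (adjusted p = 0.0632).

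**Figure D4:**
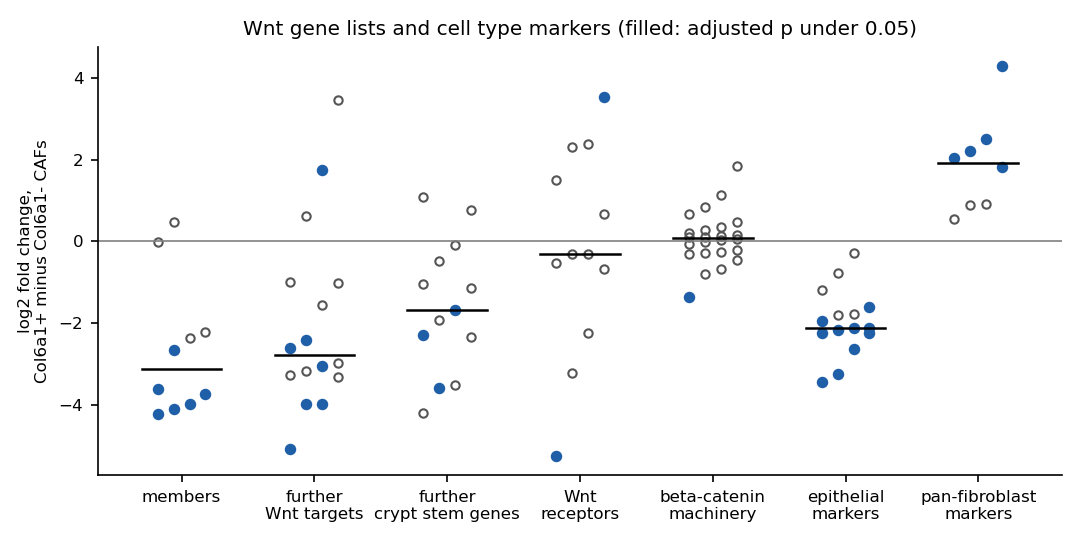
Log2 fold change, Col6a1+ minus Col6a1- CAFs, of each gene (points) in the 10 members, 4 further Wnt lists, and the epithelial and pan-fibroblast markers, with filled points at a limma adjusted p under 0.05 and black bars for the list medians. The medians are -3.13 for the members, -2.79 for the further targets, -0.31 for the receptors, 0.09 for the beta-catenin machinery and -2.12 for the epithelial markers.

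The receptors went in both directions. Of 12 Frizzled and Lrp genes, Fzd4 was higher in Col6a1+ CAFs, with 246, 106 and 169 counts against 15, 11 and 14 (3.54, SE 0.49, adjusted p = 0.00349, 0.0612 with the block). Fzd10 was lower, with 0, 4 and 3 counts against 89, 72 and 165 (-5.24, SE 0.85, adjusted p = 0.00718, 0.0717 with the block). The libraries of the groups also did not overlap for Fzd1, Fzd2, Fzd7 and Fzd8, with fold changes of 0.67, 1.49, 2.39 and 2.31 on the log2 scale, or for Fzd5 and Fzd6, with -2.23 and -3.23, but none of these 6 passed. Of all genes tested, 7.91% had every Col6a1+ library above every Col6a1- library, and 11.6% the reverse. The co-receptor genes Lrp5 and Lrp6 overlapped between the groups (-0.30 and -0.32). Fzd10 kept its direction after the epithelial scaling (-3.83). That scaling raised the median over all genes tested from -0.27 to 0.94, so it could not test the direction of a gene already higher, such as Fzd4 (5.39). Neither Fzd4 nor Fzd10 was called when any 1 library was left out.

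**Figure D5:**
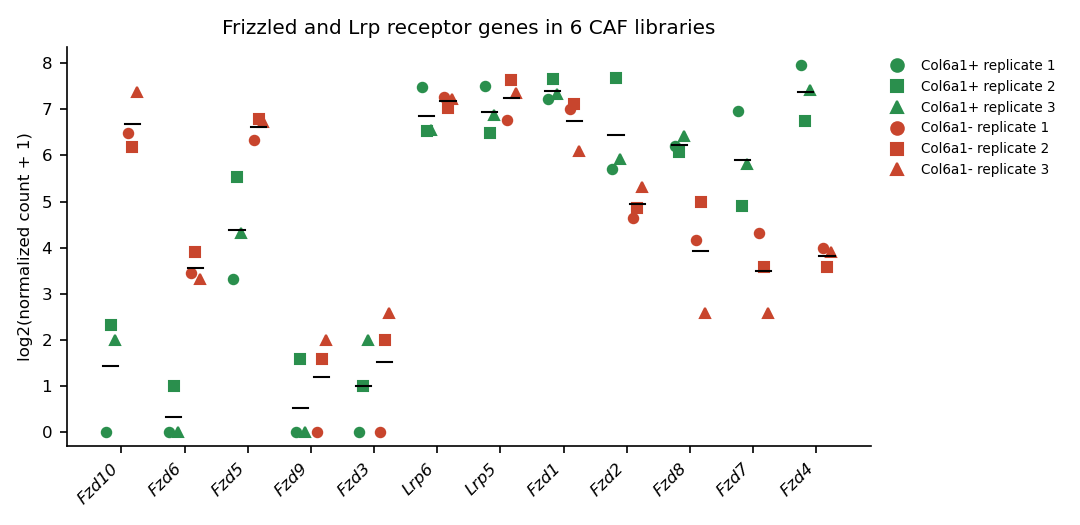
Level of 12 Wnt receptor genes in each library, as log2(normalized count + 1), ordered by fold change, with Col6a1+ CAFs in green, Col6a1- CAFs in red and black bars for the mean of 3 libraries. Fzd10 stands higher in Col6a1- CAFs and Fzd4 in Col6a1+ CAFs, and Lrp5 and Lrp6 overlap.

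Between receptor and nucleus, 1 gene passed the test. Of 24 genes (beta-catenin, the destruction complex, Dishevelled, TCF and Groucho factors and their partners), 1 was lower in Col6a1+ CAFs and 0 higher, a share close to the 4.62% called over all genes tested, and the median was 0.09 on the log2 scale. The gene was Ctnnb1, which encodes beta-catenin, with 3281, 2567 and 2354 counts in Col6a1+ CAFs and 7321, 5792 and 8141 in Col6a1- CAFs (-1.37, SE 0.28, adjusted p = 0.0209, 0.0754 with the block, not called when any 1 library was left out). Beta-catenin is also a component of epithelial adherens junctions, and Cdh1, the gene of its partner E-cadherin, had 2999, 2344 and 2580 counts against 10493, 15452 and 11963. After the epithelial scaling the sign of Ctnnb1 turned (0.60, adjusted p = 0.484). Tle2, a Groucho gene with the largest fold change of the list, had 21, 18 and 39 counts in Col6a1+ CAFs and 0, 22 and 15 in Col6a1- CAFs, with overlapping groups (1.84, adjusted p = 0.508).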

How the data were processed

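The 6 libraries were read with a QuantSeq 3′ kit on an Ion Proton instrument, so that a read stands for the 3′ end of a transcript. The authors aligned reads with TopHat2 to mm10, mapped the remainder with Bowtie2, counted them per gene with GenomicRanges and normalized the counts with DESeq in metaseqR. The deposited table gives, per gene and library, the log2 of the normalized count plus 1, and 100% of the values turned back into whole normalized counts (tolerance 1e-06). Its fold change, p-value and false discovery rate columns hold the authors' comparison and were not used, nor were 6 further columns of per-sample values. Depth was estimated from the step between low values at 2568312 to 4519185 reads for 5 libraries, and it was not resolved for Col6a1- replicate 2. Intervals and floors of counts cover counting error only.

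Groups and replicate numbers came from the labels. With limma 3.58.1 in R 4.3.3, the groups were compared by a linear model with trended empirical Bayes variances (prior degrees of freedom 6.475, residual 4), over the 26402 genes whose normalized counts summed to 1 or more, with Benjamini-Hochberg adjustment and a threshold of 0.05. The log2 values, with their pseudocount of 1, understate the change of low genes. Each library was a pool of tumors, and p-values measure the spread between pools. Deviations from the group means were correlated over the 13515 genes averaging 10 counts or more. The values were 0.245, 0.125 and 0.144 between libraries of the same number and -0.245 to 0.150 otherwise. The 0.150, of Col6a1+ replicate 2 with Col6a1- replicate 3, exceeds 0.125 and 0.144, so these correlations do not settle whether the libraries are paired. The main fit, with its SEs and intervals, had no block. The blocked value stands beside the calls of members and Wnt genes that it changes. Alternatives were library size or TMM factors, filters of at least 10 counts in every library or on average, limma-voom, the block with and without the filter on the mean, a pseudocount of 0.1, an unadjusted p with a log2 fold change over 1, leaving out each library, and, added after seeing the data, scaling to the epithelial markers.

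The members and gene lists were chosen with earlier results of these data known. All 10 members are described. Of each further list, the genes past the threshold and the gene of largest fold change were named, with close relatives beside the member they resemble, and the receptors short of the threshold were named after their values were seen. Of the marker lists other than those of T cells and proliferation, limma called 8 of 8 pericyte and 5 of 8 pan-fibroblast markers higher in Col6a1+ CAFs. It also called 2 of 10 endothelial markers (Tie1 and Esam) and 1 of 7 glial markers higher. The other 8 endothelial markers had negative fold changes, and the median of that list was -1.59. Called lower were 2 of 12 immune markers (S100a8 and S100a9) and 10 of 15 epithelial markers. Of 5 erythroid markers 0 were called (0 at an unadjusted p under 0.05). With the block over all genes tested these marker calls were lost (adjusted p 0.0612 to 0.153). With the block over the genes averaging 10 counts or more, each of these markers passed (adjusted p 0.000524 to 0.0224). Coordinates are those of the deposited table (mm10), and promoters came from RefSeq. Tables and plots were made with Python 3.11.15, NumPy 2.4.6, pandas 2.3.3, SciPy 1.17.1 and Matplotlib 3.10.9.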

Additional observations from a re-analysis of the deposited data

How the results depend on the processing

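The log2 fold changes of the 8 members other than Myc and Ccnd1 were negative in every alternative fitted, with intervals that included 0 under the epithelial scaling for Tcf7, Lef1, Lgr5 and Sox9. Over the alternatives, the members had 91 of 146 values with the same sign and the same side of the threshold, 48 no longer called, 3 newly called and 4 of the other sign, and the other named genes 90, 100, 0 and 2 of 192. The 4 were of Myc, at 0.01 with TMM factors, 1.80 with the epithelial scaling, 0.63 without Col6a1+ replicate 1 and 0.25 without Col6a1- replicate 1, and the range of Myc when 1 library was left out was -0.49 to 0.63. The epithelial scaling also turned Ctnnb1 (0.60) and Lgr4 (0.28). The cause of these changes was not tested.

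The replicate block called 0 genes in every list. When 1 library was left out, 0 to 264 genes were called in all, 0 or 1 of the members, 0 to 2 of the further targets, 0 or 1 of the further stem genes, and 0 of the receptors, of the machinery and of the close relatives, with 2 samples left in 1 group. The block over genes with a mean of at least 10 called 1852 genes and 5 members. It also called 10 further targets (2 higher, 8 lower), 7 further stem genes, 3 receptors, 1 machinery gene and 3 close relatives. The epithelial scaling called 6693 genes (6560 of them higher in Col6a1+ CAFs), 3 members (1 higher, 2 lower), 8 receptors (7 higher, 1 lower), and 3 further targets, 3 further stem genes, 20 machinery genes and 5 close relatives, each of these higher. An unadjusted p with a log2 fold change over 1 gave 3880 genes, 14 further targets, 10 further stem genes, 7 receptors and 4 close relatives. The pseudocount of 0.1 left 1 further stem gene and 0 close relatives, limma-voom gave 5 further stem genes, 4 receptors and 3 close relatives, and at least 10 counts in every library gave 5 further stem genes and 1 receptor. Genes at 0 to 3 counts in a group, such as Ascl2 in Col6a1+ CAFs, are limited by depth.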
